A study of Arabidopsis thaliana with 12 samples.

Results

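The 168 genes described here were lower in oligomycin than in ethanol after 1 h and again after 4 h. They came from liquid cultures of Arabidopsis thaliana Col-0 seedlings, raised to day 9 in long days with 1% sucrose, then darkened for 24 h and treated in the dark. Oligomycin (10 µM) or as much ethanol was added, and seedlings were collected after 1 h or 4 h. The 4 groups (ethanol 1 h, oligomycin 1 h, ethanol 4 h, oligomycin 4 h) held 3 arrays each, which the labels call biological replicates. All 12 cultures were of the same cultivar, each flask held many seedlings, and the labels name no transgene or mutation. Every group shared the dark period, so no group shows the same seedlings in light.

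Members were chosen by their measured values. Differences were taken in log2(intensity + 16), a scale that shrinks those of dim probe sets. A member's mean had to be lower in oligomycin by at least 0.4 at both times. All 3 oligomycin arrays also had to lie below all 3 ethanol arrays of that time. Of 13513 probe sets that named a single gene, 330 (2.44%) met this at 1 h and 2438 (18%) at 4 h, and 176 met it at both. The remaining 168 followed once 8 were left out by name (UGT72E2, CRT1b and symbols of the sks, EXP, XTH and UGT families), and each stood for a different gene. Since the 1 h and 4 h differences chose the members, they are given below as description without a test.

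Oligomycin blocks the proton channel of the mitochondrial ATP synthase, so electron transport slows and the cell makes less ATP by respiration. In darkened seedlings respiration is the main source of ATP, because photosynthesis is off. Plant cells answer a shortage of energy in part through the kinase SnRK1, which is known to favour catabolic genes and to restrain genes of growth, such as those for wall synthesis and ribosomes. Transcript levels fall when synthesis slows or decay quickens, and arrays do not separate these.

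Over all probe sets the median difference lay near 0 at 1 h and lower at 4 h. At 1 h limma called more probe sets higher (2.3%) than lower (1.14%) at an adjusted p under 0.05. The median log2 difference between oligomycin and ethanol was −0.04 at 1 h and −0.10 at 4 h over 22746 tested probe sets, and centring each array on its median turned the latter into 0.06, a shift of more than the 0.1 that matters here. With that centring 98 genes met the rule in place of 168, all of them among the 168. With 1 or 32 added to the intensity in place of 16, 323 and 82 genes met it.

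Most members were moderately lower after 1 h and lower still, relative to ethanol, after 4 h. Their oligomycin mean was a median of 60.0% of the ethanol mean at 1 h (17.6% to 74.6%) and 37.0% at 4 h (3.66% to 71.4%). On the log2 scale the median difference was −0.52 at 1 h and −0.84 at 4 h. The 1 h difference reached −1 or lower in 3 members and the 4 h difference in 67. At 4 h the difference was lower than at 1 h in 147 of 168, by more than 1 in 17 and by more than 0.5 in 54, and it lay within 0.1 of the 1 h value in 32. In 166 members every oligomycin array of 4 h lay below all 6 ethanol arrays of both times, and in 111 all 6 oligomycin arrays did. The rule already kept oligomycin below ethanol within each time, so these counts follow in large part from the choice of members. Their share over all probe sets was not computed. Samples were whole seedlings, so fewer cells of a type and less RNA per cell cannot be told apart.

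**Figure D1:**
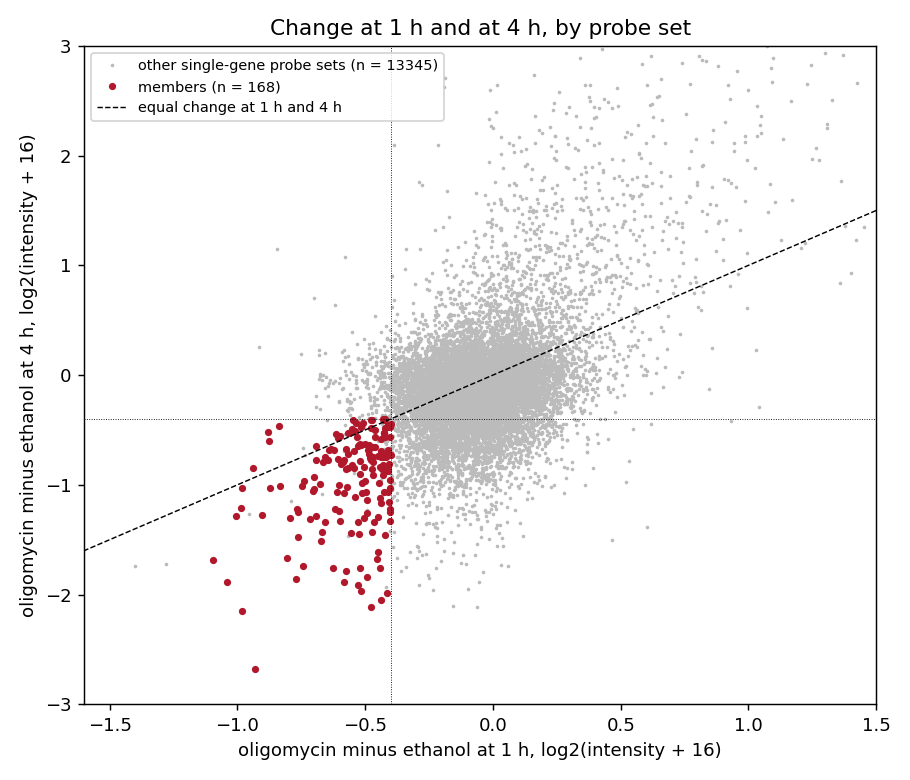
Each point is 1 probe set with a single gene name, placed by its oligomycin minus ethanol difference at 1 h (x) and 4 h (y), both in log2(intensity + 16). The 168 members fill the corner below −0.4 on both axes, 147 of them under the dashed line of equal change, and 83 probe sets outside the axes are not drawn.

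By limma across all probe sets, 83 members were called lower at 1 h (adjusted p under 0.05, two-sided), beside 1.14% of all tested probe sets called lower. At 4 h 167 were called lower, beside 25.3% of all, and AT5G45120 was not. These contrasts chose the members, so nothing is read from the counts. Single arrays moved the 1 h count. It was 38 without the first ethanol array of 1 h, 53 without the third, 46 without the second oligomycin array of 1 h and 34 without the third.

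Array by array, the shift was even within groups. Relative to each gene's mean over the 6 ethanol arrays, the median over members was −0.44, −0.50 and −0.50 in the oligomycin arrays of 1 h and −0.93, −0.92 and −0.97 in those of 4 h. The ethanol arrays stood at 0.10, 0.03 and 0.01 at 1 h and at 0.01, −0.16 and −0.03 at 4 h. The first ethanol array of 1 h was thus the highest and the second of 4 h the lowest of the controls for these genes. Over all tested probe sets the same medians ran from 0.02 to −0.02 in ethanol, from −0.01 to −0.05 in oligomycin at 1 h and from −0.10 to −0.15 at 4 h.

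**Figure D2:**
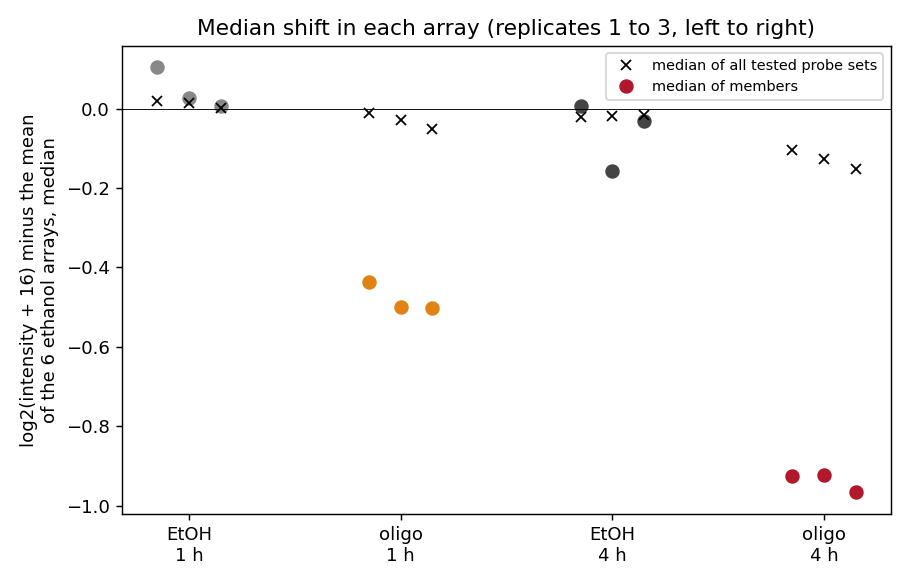
Each circle is 1 array's median over the 168 members of log2(intensity + 16) minus the gene's mean in the 6 ethanol arrays, and each cross is the same over all 22746 tested probe sets. The oligomycin circles lie near −0.5 at 1 h and between −0.92 and −0.97 at 4 h, while the crosses stay above −0.16.

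Markers of seedling parts were few among the named probe sets. Of 5 root markers only PYK10, a root beta-glucosidase, was measured, and of 11 root hair markers only the expansins EXPA7 and EXPA18. None of the 6 shoot, 1 phloem, 2 flower and 1 seed markers had a single-gene probe set, so these parts were not checked here. For PYK10 the 1 h means were 2704 ± 114 with ethanol and 2881 ± 279 with oligomycin, where the ranges overlapped, and the 4 h means 2731 ± 118 and 1651 ± 42.3, where they did not (limma adjusted p = 3.92e-05). The summed root hair markers ranged from 37.5 to 70.4 in ethanol and 31.7 to 68.8 in oligomycin at 1 h, and from 41 to 68.1 and 15.9 to 25.5 at 4 h. None of these 3 markers was at 0 on any array. PYK10 was not a member, while EXPA7 and EXPA18 could not be, since the rule left out symbols that start with EXP. At 1 h, when the members were already lower, the root and root hair markers overlapped between treatments. At 4 h the mean of each of the 3 markers was lower in oligomycin. Of the 2 root hair markers, both dim, limma called EXPA18 (30.1 ± 4.82 and 14.1 ± 2.41, adjusted p = 0.0075). EXPA7 was not called (20.7 ± 13.5 and 8.03 ± 5.05, adjusted p = 0.173). The part of these 3 markers in the 4 h values of the members was not tested.

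Strongest by the sum of both differences was a set of 12 genes known here by locus number only, since the tables used give them no other name. AT1G14960 read 400.4, 447 and 384 in the 3 ethanol arrays of 1 h and 248, 178 and 202 in oligomycin, then 521, 452 and 467 in ethanol and 73.9, 40 and 76.4 in oligomycin at 4 h. Its oligomycin level was 50.9% of the ethanol level at 1 h and 13.2% at 4 h, and its log2 difference went from −0.93 to −2.68, the lowest 4 h value of the members. AT2G43880, with the lowest 1 h difference among the members, read 60.5, 54.9 and 46 against 18.7, 14.8 and 16.3 at 1 h and 66.2, 56.6 and 59.6 against 7.2, 9.6 and 6.7 at 4 h. For this gene the groups were far apart at both times and each was tight.

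AT4G22610 was more scattered in the controls, with 111, 229.6 and 107 in ethanol against 99.8, 55.7 and 44.2 at 1 h and 204, 182 and 192 against 37.9, 29.1 and 26.2 at 4 h. Its second ethanol array of 1 h was about as high as the 4 h controls, whereas the other pair lay close to the first oligomycin array. AT4G25250 also had wide controls, at 123, 82.8 and 60.5 against 23.1, 34.8 and 44.6, and at 4 h 144, 71.8 and 89.7 against 14.9, 17.9 and 12.3. In AT1G73620 the ethanol arrays of 1 h spread most, 272, 119.7 and 189.7 against 99.8, 99.3 and 105, while those of 4 h were close, 184, 152 and 195 against 41.5, 44.7 and 26.5. In AT4G22610 and AT1G73620 the lowest ethanol array of 1 h was thus only just above the highest oligomycin array, while at 4 h all 3 genes showed a wide gap.

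A further group was moderately lower at 1 h and far lower by 4 h. AT2G41800 read 314, 274 and 278 against 202, 205 and 219 at 1 h and 275, 233 and 291 against 47, 53.3 and 56.1 at 4 h, or 72.3% and 19.6% of ethanol. AT5G46230 went from 71.5, 68.3 and 53.1 against 44.1, 37.3 and 43 to 92.2, 80.3 and 80.5 against 11.7, 5.5 and 4.9, so that its oligomycin arrays of 4 h were all below 12 while its ethanol arrays had stayed above 50. AT1G20070 showed the same course, 115, 78.3 and 99.8 against 58.9, 58.8 and 71.2 and then 104, 89.8 and 83.7 against 18.3, 8.7 and 9. AT3G20370 and AT1G72200 were at 68.5% and 62% of ethanol at 1 h, and at 24.4% and 17.3% at 4 h.

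Completing the 12, AT5G60520 read 159.8, 119 and 159 against 75.4, 87.3 and 77.8 at 1 h and 174, 119 and 163 against 41.2, 28.3 and 32.8 at 4 h. AT1G19900 read 70.9, 63.4 and 87.9 against 39.8, 27.9 and 38.7 and then 74.4, 67.4 and 56.3 against 8.3, 8 and 13.1. In both genes the oligomycin arrays of 4 h lay below every oligomycin array of 1 h.

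**Figure D3:**
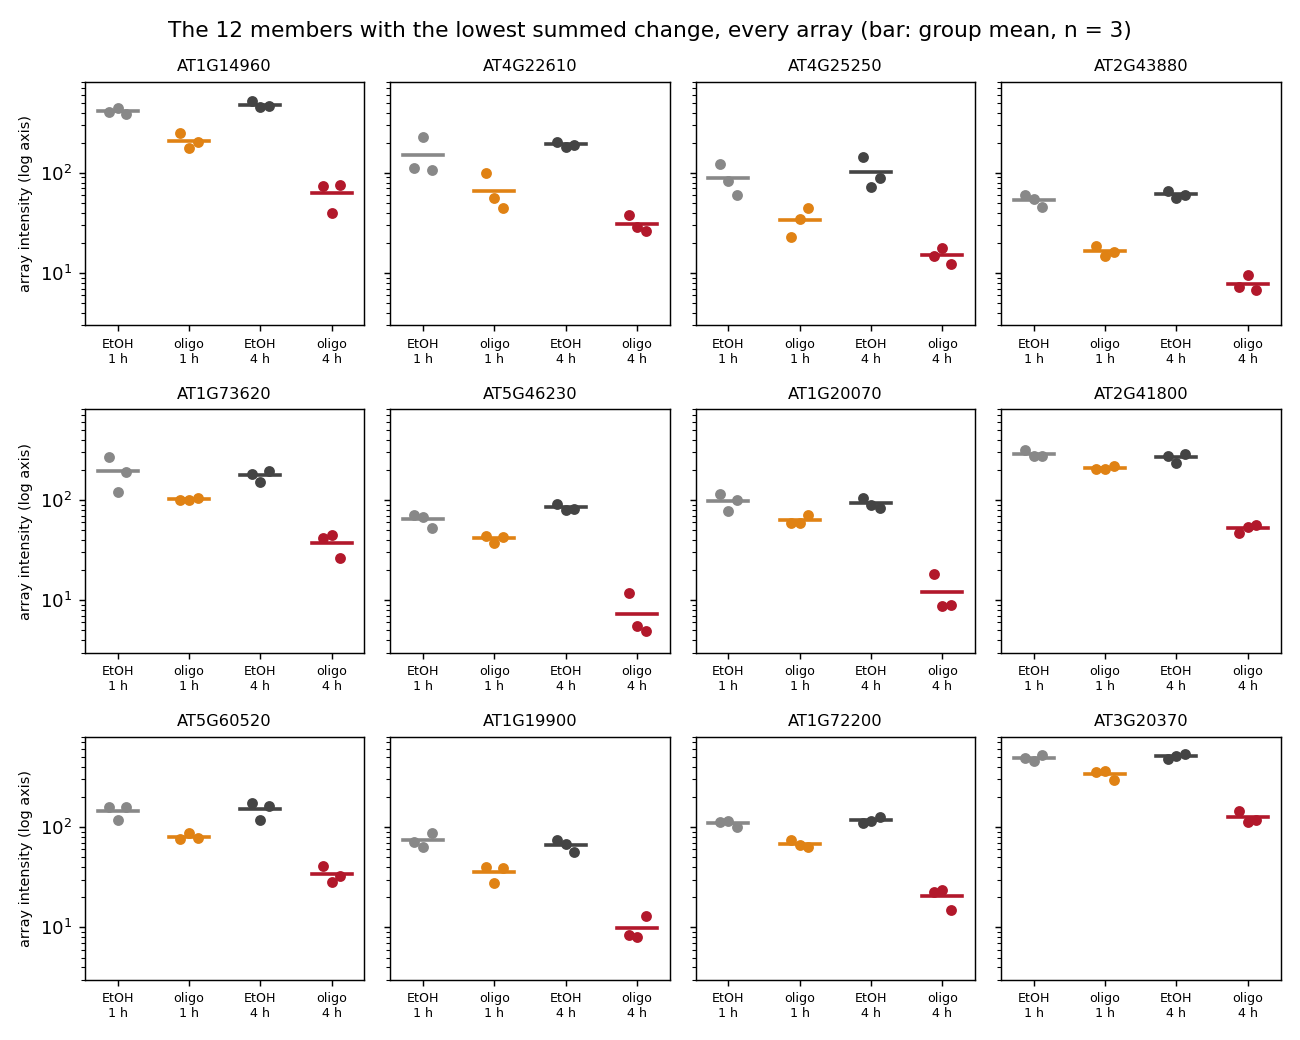
Array intensity (log axis) of the 12 members with the lowest summed difference, with a point for each of the 3 arrays and a bar for the group mean. In every panel the 4 h oligomycin points are the lowest. The ethanol points of 1 h and 4 h lie in the same range in most panels. For AT4G22610 2 of the 3 ethanol points of 1 h lie well below those of 4 h, and for AT1G14960 and AT5G46230 all 3 lie below.

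Only 21 members carried a gene name in the tables, and the other 147 had a locus number alone. The named ones had a median difference of −0.48 at 1 h and −0.90 at 4 h, and those without a name −0.52 and −0.84. By role, 5 act on the cell wall, 4 belong to peptide signalling, 3 to auxin or brassinosteroid pathways and 1 to energy sensing, while 8 have other roles. For all 21 the values below give ethanol first and oligomycin second. The keyword classes of the design named few members, since 11821 of 13513 probe sets carried no description. Class "other wall proteins" held 2 members among 39 measured genes, beside 1.24% of all single-gene probe sets that were members. Both, GH9C1 and GH9C2, belong to 1 family, so nothing is read from this count. In that class, members included, 3 were called lower and none higher at 1 h, beside 1.14% and 2.3% of all tested probe sets. At 4 h 16 were lower and 4 higher, beside 25.3% and 11.4%. The other 10 keyword classes, with 4 to 63 measured genes each, held none. Keywords also missed members that carry a name: the receptor kinases PXL1 and PXL2 and the transcription factor BIM1 fell in class "other". The absence of members from these classes thus says nothing about roles.

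Among the wall genes, GH9C2 encodes an endoglucanase, a cellulose-cutting enzyme, of the class that carries a cellulose-binding module. It read 249, 206 and 268 against 173, 159 and 154 at 1 h and 232, 217 and 222 against 69.2, 47.5 and 50 at 4 h, so it was at 67.4% and then 24.8% of ethanol. GH9C1, of the same class, read 35.4, 32.7 and 33.3 against 24.8, 15.3 and 18.9, and 33.5, 37 and 27.2 against 15.6, 12.5 and 14.3 at 4 h. The deepening from 1 h to 4 h was large for GH9C2 and small for GH9C1, with log2 differences at 4 h of −1.76 for GH9C2 and −0.68 for GH9C1.

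GlcAT14A (AT5G39990) adds glucuronic acid to the sugar chains of arabinogalactan proteins, which are heavily glycosylated wall proteins. Its arrays read 122, 87.8 and 113 against 85.2, 70.2 and 74 at 1 h and 104, 91.1 and 111 against 45.4, 48.2 and 54.4 at 4 h. GALT29A (AT1G08280) is a galactosyltransferase of the same sugar chains. It read 42.1, 79.4 and 41.8 against 33.1, 36.7 and 34.9 and then 46.1, 34.1 and 29.1 against 21.8, 23.3 and 15.6. Its second ethanol array of 1 h stood far above the others, which lay just above oligomycin. TBL41 belongs to the trichome birefringence-like family, which includes enzymes that acetylate wall polysaccharides, and it read 53.8, 50.2 and 47 against 30.6, 24.9 and 31 and 60.4, 40.6 and 46.7 against 31, 21.3 and 18.4.

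In peptide signalling, PXL2 (AT4G28650) and PXL1 (AT1G08590) encode receptor kinases close to PXY, the receptor that keeps vascular stem cells dividing. PXL2 read 83.5, 59.2 and 82.8 against 37.8, 40.5 and 44.6 at 1 h and 86.1, 92.8 and 81.3 against 21.2, 25.5 and 19.7 at 4 h. PXL1 followed with 95.2, 58.8 and 76.6 against 53.6, 43.7 and 50.7 and 88.1, 83.9 and 76.9 against 24.8, 21 and 31.1. At 4 h both were at less than 31% of ethanol (25.5% and 30.9%), with no overlap to oligomycin at 1 h.

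GSO1 is a leucine-rich repeat receptor kinase needed for the embryo's cuticle and for the root's diffusion barrier. Its gap to ethanol was of similar size at both times. It read 60.2, 46.7 and 56.8 against 37.9, 30.4 and 35.4 at 1 h and 60.3, 57.3 and 60.9 against 41.1, 33.5 and 49.2 at 4 h, 63.3% and 69.4% of ethanol. CLE27, which encodes a small secreted peptide of the CLAVATA3/ESR-related family, was dim: 27.5, 32.1 and 23.3 against 10.4, 14.1 and 19, and 22.5, 9.2 and 21.2 against 2.1, 3.6 and 3.9. All its oligomycin values of 4 h were under 4.

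Hormone genes held some of the deeper changes at 4 h. GH3.17 encodes an enzyme that joins auxin to an amino acid and so lowers free auxin. It read 198, 153 and 179 against 131, 128 and 117 at 1 h and 206, 162 and 242 against 50.2, 44.5 and 49.4 at 4 h, that is 71% and 23.6% of ethanol. WAG2, a protein kinase related to PINOID that sets the direction of auxin efflux carriers, read 71.6, 76.1 and 79.9 against 42.4, 46.8 and 26.9, and 35.6, 49 and 64.2 against 14.1, 9.4 and 11.7. In ethanol alone WAG2 had the lowest 4 h to 1 h difference of the members (−0.51, limma adjusted p = 0.271, not called). BIM1, a transcription factor that works with BES1 in brassinosteroid signalling, read 150.0, 109 and 141 against 87.9, 85.1 and 91 and 103, 86.8 and 111 against 36.1, 46.7 and 45.1.

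KINbeta2 (AT4G16360) encodes a regulatory beta subunit of SnRK1, the kinase that answers energy shortage. Its levels were 175, 145 and 201 against 113, 114 and 119 at 1 h and 149.6, 136 and 145 against 73.1, 68.2 and 67.1 at 4 h. The log2 difference was −0.52 at 1 h and −0.90 at 4 h.

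Among genes of other roles the tau glutathione transferase GSTU26, of a family that joins glutathione to toxic compounds, had the lowest 4 h difference (−1.99). It read 189, 241 and 182 against 135, 157 and 153 at 1 h and 290.0, 186 and 189.5 against 42, 45 and 41.5 at 4 h. NRPB7, a subunit of RNA polymerase II, read 164, 134 and 165 against 116, 109 and 112 and 146, 129 and 134 against 58.5, 52.6 and 45.9. PDF2.5 is a defensin, a small cysteine-rich secreted protein, and read 240.1, 246 and 257 against 177, 152 and 211 and 212, 204 and 241 against 79.2, 92.5 and 107. All 3 of these genes were lower in each oligomycin array of 4 h than in any of 1 h.

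The other 5 named members were between 38% and 71% of ethanol at 4 h. PRN, a pirin that binds the alpha subunit of the heterotrimeric G protein, was at 59.6% of ethanol at 1 h and 38.5% at 4 h. PS1, a presenilin, the catalytic part of gamma-secretase in animals, was at 69.2% and 49.1%. CXE18, a carboxylesterase, was at 68.2% and 48.7%, but its ethanol arrays of 4 h were spread (79.8, 40.4 and 86.5) and the middle one lay close to oligomycin (38.2, 37.6 and 24.8). PRA1.B6, a prenylated Rab acceptor of vesicle traffic, was at 72.5% and 56.9%. RST1, needed for normal surface wax, was at a similar level at both times, 69.6% and 70.8%.

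**Figure D4:**
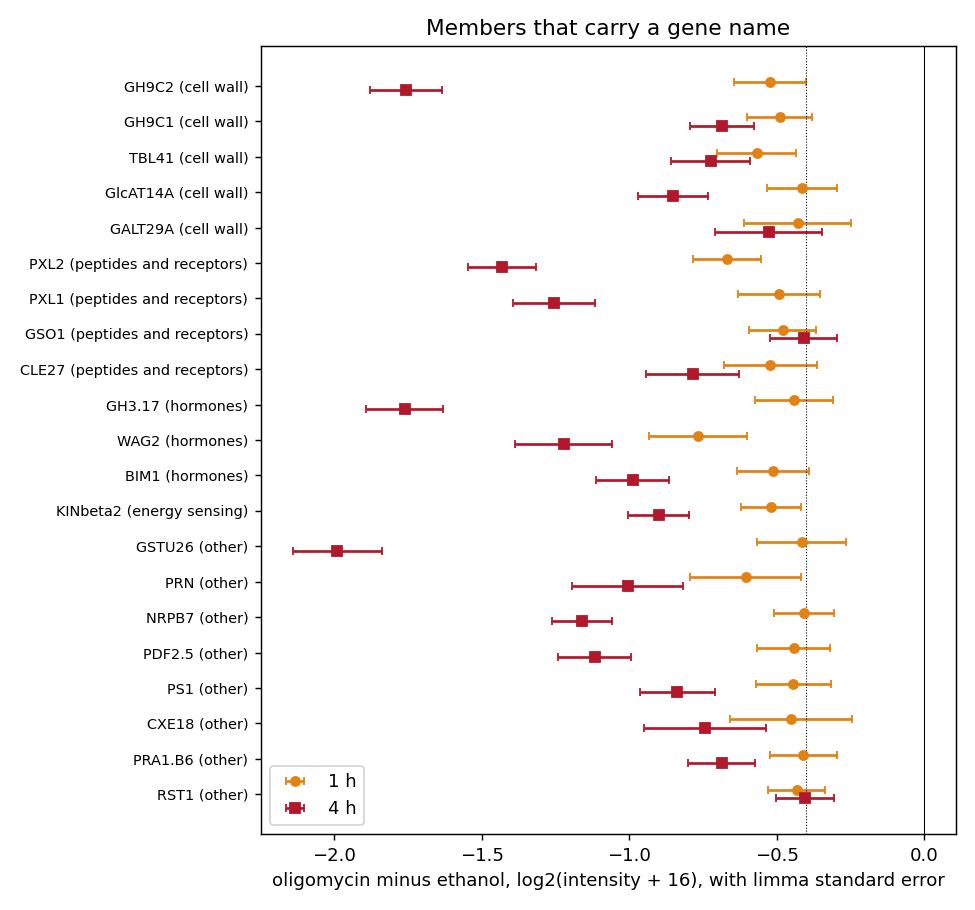
Oligomycin minus ethanol difference in log2(intensity + 16) of the 21 members with a gene name, at 1 h (circles) and 4 h (squares), with the limma standard error. The 1 h values lie between −0.77 and −0.41, and the 4 h values between −1.99 and −0.40.

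The families of these genes, chosen once the members were known, show where relatives stood. The counts below leave the members out, and since the rule had passed over these relatives, calls lower at both times were few among them by construction. They stand beside the 1.14% lower and 2.3% higher of all probe sets at 1 h and the 25.3% and 11.4% at 4 h. Directions of the called relatives did not turn under quantile normalization or centring, though of 32 calls at 4 h, 7 were lost when arrays were centred (GH9B5, TBL36, TBL18, TBL23, LCR68, PRA7 and PRA1.E). Centring also added 5 calls, all higher at 4 h (GH9A4, GH3.3, CLE44, LCR72 and CXE16), and quantile normalization added GH3.3, CLE44 and CXE16 and lost 2.

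Of the 13 measured relatives of GH9C1 and GH9C2, none was called at 1 h, and 3 were called lower and none higher at 4 h. GH9B7 fell at 4 h (357 ± 12.6 to 190.1 ± 20.7, log2 difference −0.86, adjusted p = 2.6e-05), as did GH9B8 (−0.77, adjusted p = 0.00123) and GH9B5. The third of the class with the binding module, GH9C3, was dim and not called at 4 h (13.3 ± 8.2 and 4.7 ± 5.55, limma adjusted p = 0.0682). In the trichome birefringence-like family, 23 probe sets besides that of TBL41 gave no call at 1 h. At 4 h 8 were lower and 2 higher, with TBL25 the deepest (251 ± 20.8 to 63.2 ± 10.4, −1.76) and TBL37 among the rises (0.55).

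For arabinogalactan, GlcAT14B (AT5G15050) was level at 1 h (78.7 ± 17.9 and 78.6 ± 9.53) and fell at 4 h from 90.7 ± 18.6 to 31.3 ± 1.96 (limma adjusted p = 5.76e-05), a log2 difference of −1.16 beside −0.85 for GlcAT14A. GlcAT14C (AT2G37585) was not called at either time (−0.01 and −0.18). Of the other CLE peptides, CLE41 and CLE44, which are known as ligands of PXY, were not called at 4 h (−0.31, adjusted p = 0.0509 for CLE41 and 0.23, adjusted p = 0.126 for CLE44 by limma). CLE44 was called higher after quantile normalization (0.37, adjusted p = 0.02) and after centring (0.39, adjusted p = 0.016). CLE26 and CLE40 were not called under these scalings.

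In the GH3 family no relative of GH3.17 was called lower. WES1, another auxin-conjugating enzyme, rose at 4 h from 88.7 ± 14.4 to 144 ± 13.9 (limma adjusted p = 0.0354), and GH3.1, GH3.3 and GH3.9 were not called. GH3.3 was called higher after quantile normalization (0.33, adjusted p = 0.0307) and after centring (0.37, adjusted p = 0.024). The beta subunits of SnRK1 went in both directions. AKINBETA1 rose at 1 h from 191 ± 8.46 to 269.8 ± 31.7 (limma adjusted p = 0.0213) and was higher at 4 h too, 457 ± 28.7 against 211 ± 15.8 in ethanol (adjusted p = 3.7e-06). KINbeta3 (AT2G28060) was level at 1 h (106 ± 6.35 and 106 ± 5.28) and fell at 4 h from 112 ± 12.3 to 73.7 ± 1.74 (adjusted p = 0.000643). KINbeta2 itself was lower at both times by the rule.

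Tau glutathione transferases split widely. Of the 10 relatives of GSTU26, 2 were called higher at 1 h and none lower, and 4 were lower and 3 higher at 4 h. GSTU27 and GSTU20 were called lower at 4 h (−1.29 and −1.11) after 1 h values that were not called (−0.35 and −0.02). The 5 measured relatives of NRPB7 in RNA polymerase II were not called at either time and lay between −0.21 and 0.14 at 4 h. No p for a difference between relatives was computed.

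**Figure D5:**
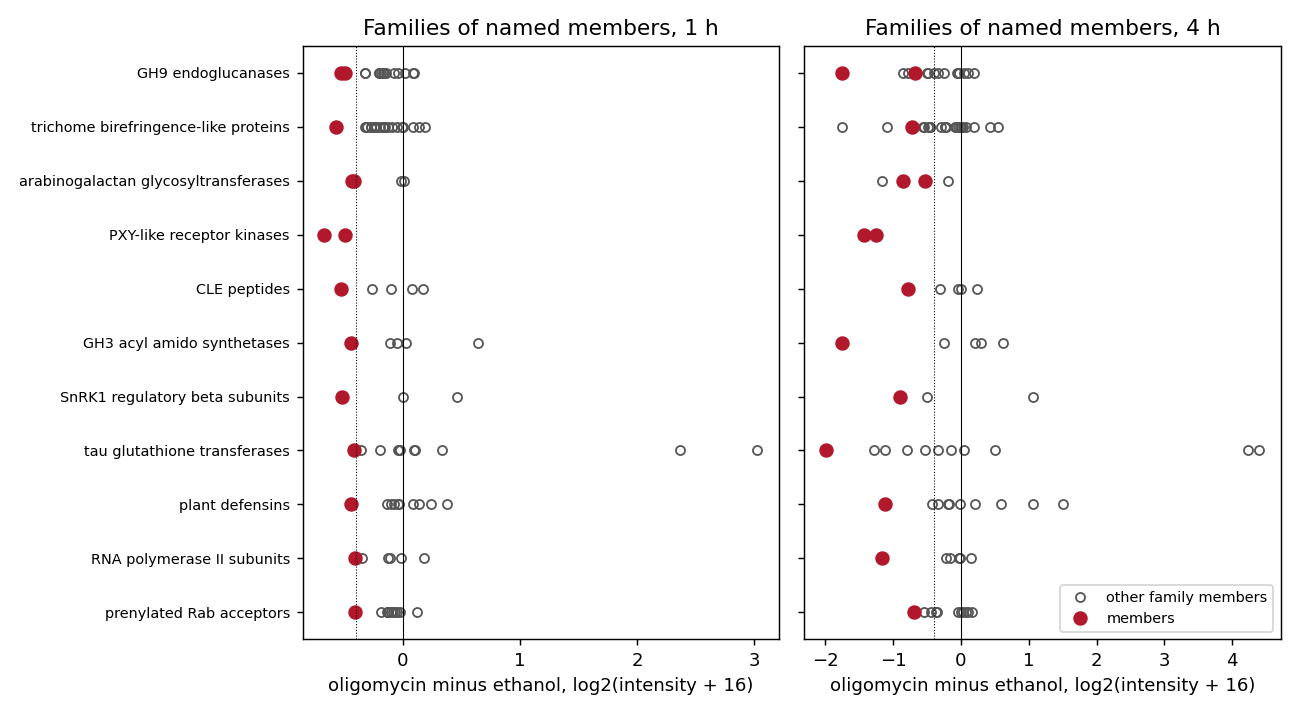
Oligomycin minus ethanol difference in log2(intensity + 16) at 1 h (left) and 4 h (right) for every measured gene of 11 families, with members filled and relatives open. Members lie left of the dotted line at −0.4 by the rule, while relatives such as GSTU22 and GSTU25 lie to the right of it, up to 4.39.

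The ethanol cultures gave a contrast that the rule did not use, 4 h against 1 h without oligomycin. No member was called by limma, and of all 22746 probe sets 2 were called lower (0.00879%) and 0 higher (0%). At an unadjusted p under 0.05 there were 23 members lower and 1 higher, beside 11.9% of all probe sets in either direction. The log2 difference ran from −0.51 to 0.43 with a median of −0.14, against −0.03 for all tested probe sets, and 124 of 168 were below 0. The shares of all probe sets by direction and below 0 were not computed, so nothing is read from these counts. The ethanol arrays of 1 h also enter the 1 h difference, and 147 members lay nearer the rule's limit at 1 h than at 4 h, so this contrast shares arrays with the choice of members.

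Within oligomycin, 100 members were lower at 4 h than at 1 h and 1 was higher by limma, beside 22.8% and 10.8% of all probe sets, and 67 were not called. This contrast is the sum of the ethanol contrast and the change in the oligomycin effect, so it is not independent of the rule either. In 116 members all 3 oligomycin arrays of 4 h lay below all 3 of 1 h. The share of all probe sets with that order was not computed, so nothing is read from this count. The single rise was AT3G61930, with 9.6, 5.1 and 6.1 at 1 h and 13.8, 16.4 and 13.5 at 4 h (log2 difference 0.42, adjusted p = 0.0404). This call was lost without the second or the third oligomycin array of 1 h and without any 1 of the 3 of 4 h.

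How far the difference grew from 1 h to 4 h varied among members. Over all single-gene probe sets the median change was −0.04, with a range from −2.05 to 4.75. Among members the median change was −0.31 and the range from −1.74 to 0.37. AT1G14960 (−1.74), AT5G46230 (−1.63), AT2G41800 (−1.61), GSTU26 (−1.57) and AT1G20070 (−1.45) deepened most. At the other end 5 members had eased by more than 0.1 at 4 h. AT3G61930 went from 27.8% to 54.2% of ethanol, AT2G16230 from 18.9% to 36.2% and AT1G66440 from 35.1% to 50.1%. AT3G24240 and AT4G35030 changed by 0.14 and 0.10. The first 3 of these were dim, with AT2G16230 at 33.3, 13 and 18.9 against 2.6, 2.6 and 7.1 at 1 h and 18.3, 13.6 and 10.9 against 1.6, 5.1 and 8.8 at 4 h.

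The members at the ends of the ranges are given next and were chosen after their values were seen. By percent of ethanol the lowest at 1 h was AT1G34510 (5.8, 8.5 and 7.3 against 2, 0.9 and 0.9), with 9, 15.5 and 1.1 against 0.5, 0.4 and 0.5 at 4 h. The lowest at 4 h was AT5G04120, which read 32.1, 40.5 and 23.8 against 20, 17.9 and 15.9 at 1 h and 78.4, 15.6 and 72.5 against 0.7, 0.9 and 4.5 at 4 h. Each percentage rests on dim oligomycin values. AT1G57590, the third member with a 1 h difference of −1 or lower, read 92.2, 85.3 and 65.6 against 33.5, 32.7 and 29.8 and then 72.3, 52.8 and 77.8 against 20.9, 17.7 and 15.7. AT1G52060, a bright probe set, read 579.6, 485 and 654 against 366, 287 and 392 at 1 h and 542, 336 and 565 against 165, 175 and 214 at 4 h. AT5G45120, the member not called at 4 h, read 12.3, 16.2 and 6.2 against 1.6, 4.9 and 2.1 there, so the last of its ethanol arrays lay close to oligomycin.

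Not every early difference lasted. Of the 330 single-gene probe sets that met the 1 h condition, 154 did not meet it at 4 h, with a median 1 h difference of −0.48 beside −0.52 for the members. At 4 h their median was −0.07, limma called 14 of them lower and 8 higher, and 52 lay above 0. The mirrored rule for rises was met by 383 probe sets at 1 h, 1227 at 4 h and 320 at both. These are counts fixed by the conditions and carry no test.

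Many members were dim. Mean intensity over the 12 arrays was under 50 in 86 of 168 and under 16 in 18, while 35 reached 100 or more. The shares over all probe sets were not computed for the counts given here. As a set, members were brighter than most in ethanol at 1 h, with a median of 67.5 beside 35.1 over all single-gene probe sets. In oligomycin at 4 h these medians were 23.8 and 28.3. In 45 members all 3 oligomycin arrays of 4 h were under 16, the constant added before the logarithm, so their changes are understated most. No member was at 0 on any array. One probe set, that of AT3G32030, ended in _s_at and can detect more than 1 transcript.

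For 3 members there was a second single-gene probe set that the rule did not select. That of AT5G50740 read 43.6 ± 4.98 and 32.2 ± 1.51 at 1 h and 36.4 ± 10.4 and 14.3 ± 6.07 at 4 h, with a fall at 4 h (−0.79, limma adjusted p = 0.00165) and none called at 1 h (−0.30). AT1G22330 gave the same outcome: a fall at 4 h from 27.8 ± 4.48 to 8.53 ± 1.86 (limma adjusted p = 0.00015) and −0.21 at 1 h, not called. The second probe set of AT3G50590 was dim and went the other way at 4 h without a call (10.8 ± 1.55 and 16.9 ± 3.42, limma adjusted p = 0.0506), so its 2 probe sets disagreed. The gene table lists a second locus, AT3G50600, as a synonym of this gene.

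Position was not part of the rule. Members came from all 5 nuclear chromosomes, at 0.968% to 1.43% of the measured single-gene probe sets of each, beside 1.24% in all, and none of 69 chloroplast probe sets was a member. In 4 cases a member lay within 3 genes of another. AT5G60520 and AT5G60530 are direct neighbours, and AT5G60530 read 178, 103 and 151 against 78.3, 72.4 and 78.6 at 1 h and 114, 69.6 and 156 against 24.8, 29.6 and 31.9 at 4 h. AT1G66440 and AT1G66450 also adjoin, with AT1G66450 at 44.8% and 38.6% of ethanol. AT3G45680 and AT3G45700 lie 2 genes apart (−0.41 and −1.24 at 4 h), and AT5G47950 and AT5G47980 3 apart (−1.11 and −1.30). Counting each pair from both sides, 8 of 389 measured neighbours of members were members (2.06%). Whether probes of neighbours share sequence was not checked.

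At the rule's limit the cut ran through a dense field. The members nearest to it were AT2G28780, AT3G29410 and AT1G54380, whose smaller difference of the pair was −0.40. Just outside were AT5G66420, AT3G14920 and BZIP61, a basic leucine zipper transcription factor, also at −0.40 after rounding (1 h values of −0.399, −0.398 and −0.398). The 4 h means of BZIP61 were 62.2 with ethanol and 22.9 with oligomycin. In all, 54 members lay within 0.05 of the limit, and 66 probe sets that met the other conditions lay within 0.05 outside it.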

How the data were processed

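Total RNA from seedling cultures was labelled with biotin and hybridised to 12 Arabidopsis arrays. The deposited values are array intensity on a linear scale, from 0 (166 values) to 6149.7. Per the submitters' processing notes RMA was used, but RMA commonly gives log2 values without zeros, so the steps behind these intensities are not given in the sources used here. Having 3 arrays per group limits the precision.

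Of 22810 probe sets 64 controls were left out and 22746 tested. Names came from the platform's annotation, in which 13513 probe sets had 1 gene and 503 several. Names other than symbols came from the TAIR10.1 gene table, which matched 167 of the 168 members. AT3G21680 had no entry. Protein and promoter sequences were not used here.

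Intensities were turned into log2(intensity + 16). Limma 3.58.1 in R 4.3.3 fitted 1 mean per group with moderated two-sided tests, and each contrast's p-values had Benjamini-Hochberg adjustment across the 22746 probe sets, with 0.05 as the threshold. "Rose", "fell" and "called" for genes that are not members, and for contrasts the rule did not use, mean that this threshold was passed. The fit was tested on simulated data. In the 2 contrasts that chose them, members are described without p-values, and their counts of calls are printed as description. Values after ± are SD with n = 3.

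Genes named were the 12 members with the lowest summed difference, up to 3 per keyword class, the 5 highest and 5 lowest in the growth of the difference, members with a name, neighbours and those nearest the limit. The families were added later. The members and lists were chosen with earlier results of these data known.

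Alternatives were a replicate block, other added constants, quantile normalization, centring, leaving out the dimmest 40%, array weights, an intensity trend with a robust prior, other limits in the rule, and leaving out each array.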

Additional observations from a re-analysis of the deposited data

How the results depend on the processing

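The number of members depended on the scale and the limit. It was 323 with 1 added to the intensity, 82 with 32, 98 with arrays centred on their median, 329 at a limit of −0.3 and 85 at −0.5. Quantile normalization gave 137, of which 130 were among the 168. Leaving out 1 array gave 162 to 221, and not all of the 168 were among them. The fewest, 137, were kept without the second ethanol array of 1 h. The most, 165, were kept without the first oligomycin array of 4 h. For the same 168 members, the median growth of the difference from 1 h to 4 h was −0.57 and −0.23 with 1 and 32 added, −0.24 after quantile normalization and −0.20 after centring, and −0.35 to −0.28 without 1 array. With 1 added, 37 members were called lower at 1 h in place of 83, and 34 to 87 without 1 array. The single rise within oligomycin became 0 with 32 added, with the dimmest 40% left out and with the replicate block, became 2 after quantile normalization or centring, and ran from 0 to 1 without 1 array. Falls within oligomycin (100 of 168) numbered 67 after centring, 72 after quantile normalization, 116 with array weights and 83 to 103 without 1 array. Calls at 4 h (167) numbered 144 after centring, 155 after quantile normalization and 152 to 168 without 1 array, and were 125 of the 125 members left without the dimmest 40%. No member was called in ethanol under any alternative run. Whether arrays with the same replicate number were paired was not settled. Of 18 such pairs, 3 had correlated deviations over 0.1 (r from −0.09 to 0.17). In 14 of 36 comparisons an array matched its own number best. With 3 arrays per group these values cannot decide the question. The replicate block gave 83 calls at 1 h, 167 at 4 h and 101 falls within oligomycin. The causes of these shifts were not tested. Promoter motifs and protein features were not analysed here.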

Other observations

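Relatives of the members held changes in both directions. Their counts at 4 h stand beside 25.3% lower and 11.4% higher of all tested probe sets. Of 9 measured relatives of the defensin PDF2.5, 3 rose at 4 h: PDF1.4 from 103 ± 14.5 to 321 ± 32.7 (limma adjusted p = 0.000456), LCR67 from 4.43 ± 2.11 to 26.8 ± 5.84 and PDF2.1 from 15.4 ± 2.91 to 31.1 ± 5.16. LCR68 fell from 833 ± 34 to 618 ± 17.4 (adjusted p = 0.00685), a call that was lost when arrays were centred. Among 10 relatives of PRA1.B6, 3 were lower at 4 h and none higher. The calls of PRA7 and PRA1.E, among these 3, were lost when arrays were centred. CXE20, a carboxylesterase, fell at 1 h from 42.1 ± 1.04 to 27.3 ± 2.14 (limma adjusted p = 0.0182) and was higher in oligomycin at 4 h, 38.2 ± 1.86 against 49.4 ± 6.27 (adjusted p = 0.031).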
